A study of Mus musculus with 24 samples.

Results

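Oxidative phosphorylation joins the electron carriers of the inner mitochondrial membrane to an enzyme that makes ATP. The genes examined were those of complexes I to V and cytochrome c whose symbols start with Nduf, Uqcr, Atp5 or Cox followed by a digit from 4 to 8, together with Sdha to Sdhd, Cyc1 and Cycs. They were chosen by symbol and not by any measured value. These were 91 of the 12010 genes measured in B16F10-luc2, a mouse melanoma line that carries a luciferase reporter. By complex, 45 belonged to complex I, 4 to complex II, 9 to complex III, 1 encoded cytochrome c, 13 belonged to complex IV, 17 to complex V, and 2 were pseudogenes (Ndufb4c and Ndufs5-ps). Among the complex I genes, 8 encode assembly factors that leave the finished enzyme. The 13 subunits encoded by the mitochondrial genome were not analysed here.

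The study asked how MITF, TFEB and TFE3, related transcription factors, divide the control of genes between them. Messenger RNA was measured in 8 lines with 3 libraries each. These were the parental cells (genotype WT), the KOs of a single factor (MITF, TFEB or TFE3), the MITF/TFE3, MITF/TFEB and TFEB/TFE3 double KOs (DKOs), and the triple KO (TKO). All grew untreated in DMEM with serum. The MITF KO line carries a frameshift that may leave a truncated protein, and TFEB and TFE3 were disrupted by CRISPR-Cas9 in parental or MITF KO cells, followed by isolation of single clones. Each KO line therefore differs from its control in its clonal history as well as in the gene, and the clone and the KO cannot be told apart. Nothing in the labels says that the 3 libraries of a line came from separate cultures, so the p-values measure the spread between these libraries, which may be technical.

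Complex I (NADH dehydrogenase) and complex II (succinate dehydrogenase, also an enzyme of the citrate cycle) pass electrons to coenzyme Q, complex III passes them on to cytochrome c, and complex IV (cytochrome c oxidase) to oxygen. Complexes I, III and IV pump protons, and complex V (ATP synthase) uses the gradient. In melanocytes and melanoma, MITF is known to activate Ppargc1a, the gene of the coactivator PGC1α, which raises the expression of many of these subunits.

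The promoters of 74 members were found by symbol in the RefSeq windows of build GRCm38.p6, each 300 bases long, with 250 before the start of the gene. Letters bound by MITF and its relatives (CACGTG, an E-box) stood in 6 of the 74 windows (8.11%). Table genes had 9647 windows, of which 1155 held these letters (11.97%), a higher share than among the members. The longer form TCACGTGA was found in 1 window, that of Ndufa7, and TCATGTGA in 0. Letters bound by NRF1 (GCATGCGC) stood in 13 windows (17.6%, against 6.25% of those of the table genes) and letters bound by ETS factors such as GABPA (CCGGAAG) in 19 (25.7% against 21.1%). Both strands were searched, and TCACGTGA holds CACGTG. A match describes letters and is not a binding site. Shown here are stretches of 3 promoters whose genes are core or paralogue members discussed with their levels, with the matching letters in capitals, 5′ to 3′ on the strand of the gene. They were placed on GRCm39 (mm39) by an exact match.
Ndufv1 (chr19:4062879-4062964, minus strand, CACGTG): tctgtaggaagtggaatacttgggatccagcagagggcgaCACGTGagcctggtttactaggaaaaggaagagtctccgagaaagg
Cycs (chr6:50543562-50543649, minus strand, GCATGCGC): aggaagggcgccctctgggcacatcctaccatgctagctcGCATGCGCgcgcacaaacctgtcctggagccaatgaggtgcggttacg
Cox6a1 (chr5:115487130-115487219, minus strand, GCATGCGC read on both strands): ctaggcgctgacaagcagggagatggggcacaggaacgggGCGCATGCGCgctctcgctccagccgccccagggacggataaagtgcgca
GENCODE placed no feature in the first stretch, while the stretch of Cycs overlapped an exon of 5430402O13Rik and that of Cox6a1 an exon of A430102K17Rik, and neither an exon of the gene itself.

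The libraries held 18300902 to 26667877 reads on genes. Values are CPM, read counts scaled to a fixed library total, scaled by the authors with the TMM method. Because the kit reads only the 3′ end of each transcript, CPM does not grow with gene length. Each of the 91 had at least 22 reads in every library, while a gene left out of the table before deposition could not be a member. The median member had a mean of 262 CPM, and the range ran from 2.47 CPM for Cox6a2 to 1833 CPM for Atp5g3. The disrupted genes were checked by their mRNA. Tfeb fell from 7.87 to 10.3 CPM in the parental cells to 2.06 to 3.67 CPM in TFEB KO cells, 2.64 to 3.86 CPM in MITF/TFEB DKO cells and 2.81 to 3.40 CPM in TKO cells, and stood at 4.93 to 5.27 CPM in TFEB/TFE3 DKO cells. Tfe3 fell from 35.4 to 38.4 CPM to 8.01 to 14.4 CPM in the single and double KOs and 17.6 to 21.7 CPM in TKO cells. Mitf mRNA was higher in the MITF KO than in the parental cells, at 1358 to 1470.5 against 763 to 797 CPM, so that its level says nothing about a frameshift. All 7 melanocyte markers on the list were measured, and 6 of the 7 were lower in MITF/TFEB DKO and TKO cells than in the parental cells. Mlana fell from 760.3 to 851 CPM to 227 to 266 CPM and 177 to 189 CPM. Of the markers of other cell types, 2 of 4 for leukocytes, 1 of 3 for endothelium, 2 of 4 for fibroblasts and 0 of 3 for epithelium were in the table. The fibroblast markers Col1a1 and Col1a2 were called up in the MITF KO, at 1.91 to 2.45 and 30.6 to 39.6 CPM against 0.13 to 0.55 and 9.19 to 12.3 CPM in parental cells, and were likewise called up with TFEB lost as well, at 6.27 to 7.84 and 28.2 to 37.5 CPM. Pecam1 of endothelium ran from 0 to 31.6 CPM and the leukocyte genes Cd68 and Lyz2 reached 1.74 and 3.90 CPM. The libraries came from a cultured melanoma line and lines made from it, so that such a marker need not mean another cell type. The part of other cells in the results was not tested, and in bulk RNA fewer cells of a type and less RNA per cell cannot be told apart.

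A group of members swung together between libraries of the same line. Among the 91 members, 11 had a highest library at least 1.5 times the lowest of its line in the median line, a property of 10.4% of the 10546 genes of the table with over 10 reads in every library. The share was thus near that of the table, and such swings were not particular to the members. The median of this ratio was 1.17 over the members and 1.22 over those table genes. The 11 were Atp5md, Ndufs5, Cox7c, Sdhd, Ndufa1, Atp5j, Ndufb3, Ndufb1, Sdhc, Uqcrfs1 and Ndufa4. Cox7c, a small subunit of complex IV, was at 129, 138 and 292 CPM in the parental cells, at 141, 523 and 393 CPM in TFE3 KO cells and at 65.4, 247 and 53.8 CPM in TFEB/TFE3 DKO cells. Sdhd, a membrane anchor of complex II, was at 3.24, 23.8 and 19.3 CPM in TFE3 KO cells. In the same line Atp5md, a small membrane subunit of ATP synthase, was at 106, 609 and 293 CPM. The same libraries were high for each of these genes. All 11 stood above their own mean in parental replicate 3, TFE3 KO replicates 2 and 3, TFEB KO replicate 2, MITF/TFE3 DKO replicate 1 and TFEB/TFE3 DKO replicate 2. None did in parental replicate 2, MITF KO replicate 2, TFEB KO replicates 1 and 3, MITF/TFEB DKO replicate 1 and TFEB/TFE3 DKO replicates 1 and 3. The library where they were highest on average, TFE3 KO replicate 2, held 23814972 reads and the one where they were lowest, TFEB/TFE3 DKO replicate 3, 21755996, and the part of depth or of other properties of the libraries was not tested. Below, library values or results with a library left out are given for some of these 11 genes.

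**Figure D1:**
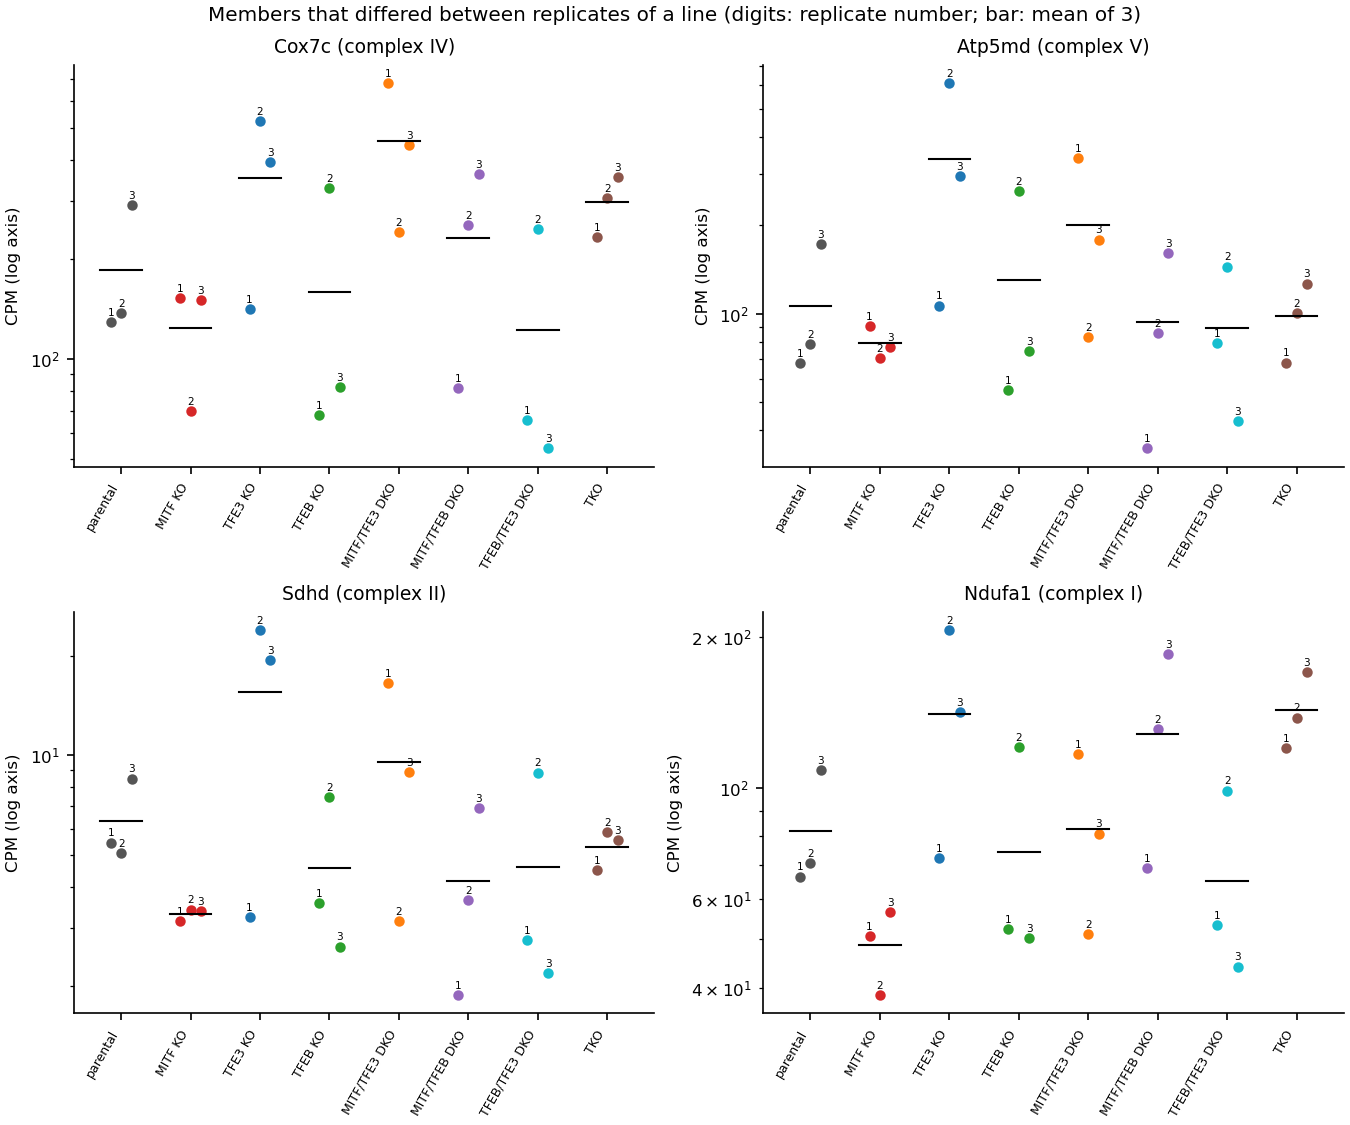
CPM (log axis) of Cox7c, Atp5md, Sdhd and Ndufa1 in the 24 libraries, by line, with the replicate number above each point and a bar at the mean of 3. The same replicate is high in each gene, for example TFE3 KO replicate 2, where Cox7c reached 523 CPM and Sdhd 23.8 CPM.

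Loss of TFEB or TFE3 alone left most members near the parental level. A member was called up or down at a Benjamini-Hochberg adjusted p under 0.05 over all 12010 genes. In the TFE3 KO 4 members rose (background 4.50% of all genes) and 3 fell (7.78%), with a median log2 change of 0.02 over the 91. In the TFEB KO 1 rose (background 2.25%) and 0 fell (2.59%), with a median of -0.03. With both lost, 0 rose (background 4.72%) and 4 fell (4.09%), with a median of -0.14. The median over all genes lay within 0.03 of 0 in each comparison reported. At an unadjusted p under 0.05 by the same limma fit and at least a 2-fold change, the threshold of the study, 1 member, the swinging gene Atp5md, passed in the TFE3 KO (background 1.71%), 0 for TFEB KO cells (0.783%) and 0 for TFEB/TFE3 DKO cells (0.958%). The count in the TFE3 KO hung on its replicate 1: without that library 8 rose and 12 fell, and the cause was not tested.

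Cox7b, a small subunit of complex IV, was at 307, 314 and 374 CPM in the parental cells and at 473, 653 and 495 CPM in TFE3 KO cells. These groups did not overlap, and the log2 change was 0.69 ± 0.15 (SE), with an adjusted p of 0.0036. Atp5a1, the catalytic partner α of the ATP synthase head, rose by 0.45 ± 0.14 (adjusted p 0.042), from 598 to 675 CPM to 696 to 1085 CPM. That call was lost when any of 5 of the 6 libraries was left out, and without TFE3 KO replicate 2 the change was 0.28 (adjusted p 0.30). Cycs (0.32 ± 0.10, adjusted p 0.032) and Atp5l (0.52 ± 0.16, adjusted p 0.032) made up the other rises, and the call of Atp5l was lost without any of the parental libraries or TFE3 KO replicate 2 (adjusted p up to 0.23). The falls were of Ndufb4 (by 0.39, adjusted p 0.0066), Ndufa10 (by 0.42, adjusted p 0.025) and Atp5o (by 0.42, adjusted p 0.0076), which encode accessory subunits of complex I and the stalk protein that links the head of ATP synthase to its membrane part. The call of Ndufa10 was lost without parental replicate 1 or 2 or TFE3 KO replicate 2 or 3 (adjusted p up to 0.13), and that of Atp5o without parental replicate 2 (adjusted p 0.055). Around Ndufb4 the median change of the 100 nearest genes on chromosome 16 was -0.31.

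In the TFEB KO the member called was Cox4i1, a regulatory subunit of complex IV. It was at 549, 646 and 670.1 CPM in the parental cells and at 799, 902 and 829 CPM in TFEB KO cells, and no library of one line reached the other. The log2 change was 0.44 ± 0.10 (adjusted p 0.011) and that of the 100 genes around it on chromosome 8 had a median of 0.24. The call was lost without parental replicate 1 (0.36, adjusted p 0.095) or TFEB KO replicate 2 (0.39, adjusted p 0.052). In the TFEB/TFE3 DKO the falls were of Ndufab1, the acyl carrier protein of mitochondria (by 0.36, adjusted p 0.0089), Ndufaf2, an assembly factor (by 0.41, adjusted p 0.0073), Cox8a (by 0.35, adjusted p 0.034) and Ndufb2 (by 0.28, adjusted p 0.039), the last named after its values were seen. The call of Ndufab1 was lost without TFEB/TFE3 DKO replicate 1 (adjusted p 0.059) and that of Ndufaf2 without parental replicate 2 (adjusted p 0.065). The call of Cox8a was lost without parental replicate 2 or 3 or TFEB/TFE3 DKO replicate 1 or 3, with adjusted p up to 0.16.

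Loss of MITF was followed by higher levels of many members. In the MITF KO 35 of 91 rose, or 38.5% (background 20.1% of all genes), and 4 fell (17.8%), with a median log2 change of 0.22. The rises were small, and 0 members passed the 2-fold threshold (background 6.28%). Complex I had 17 of 45 up and 3 down, complex II 1 of 4 up, complex III 5 of 9 up, cytochrome c was up, complex IV had 6 of 13 up and 1 down, and complex V 4 of 17 up. The medians were 0.22 for complex I, 0.08 for complex II, 0.34 for complex III, 0.15 for complex IV and 0.20 for complex V. That of complex II rests on 4 genes, of which Sdhc and Sdhd swung between libraries. Its summed level, mostly Sdhb, was 1504, 1650 and 1395 CPM in the parental cells and 1850, 2010 and 1749 CPM in MITF KO cells. The median of complex IV likewise includes swinging genes, Cox7c and Ndufa4. By mean summed level, MITF KO cells stood at 1.25 times the parental cells for complex IV. The ratio was 1.16 for complex I, 1.28 for complex III and 1.12 for complex V. Summed over the 91 members, the level was 28353, 30914 and 30908 CPM in the parental cells and 36294, 35465 and 35023 CPM in MITF KO cells. Every MITF KO library lay above every parental library in that sum.

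**Figure D2:**
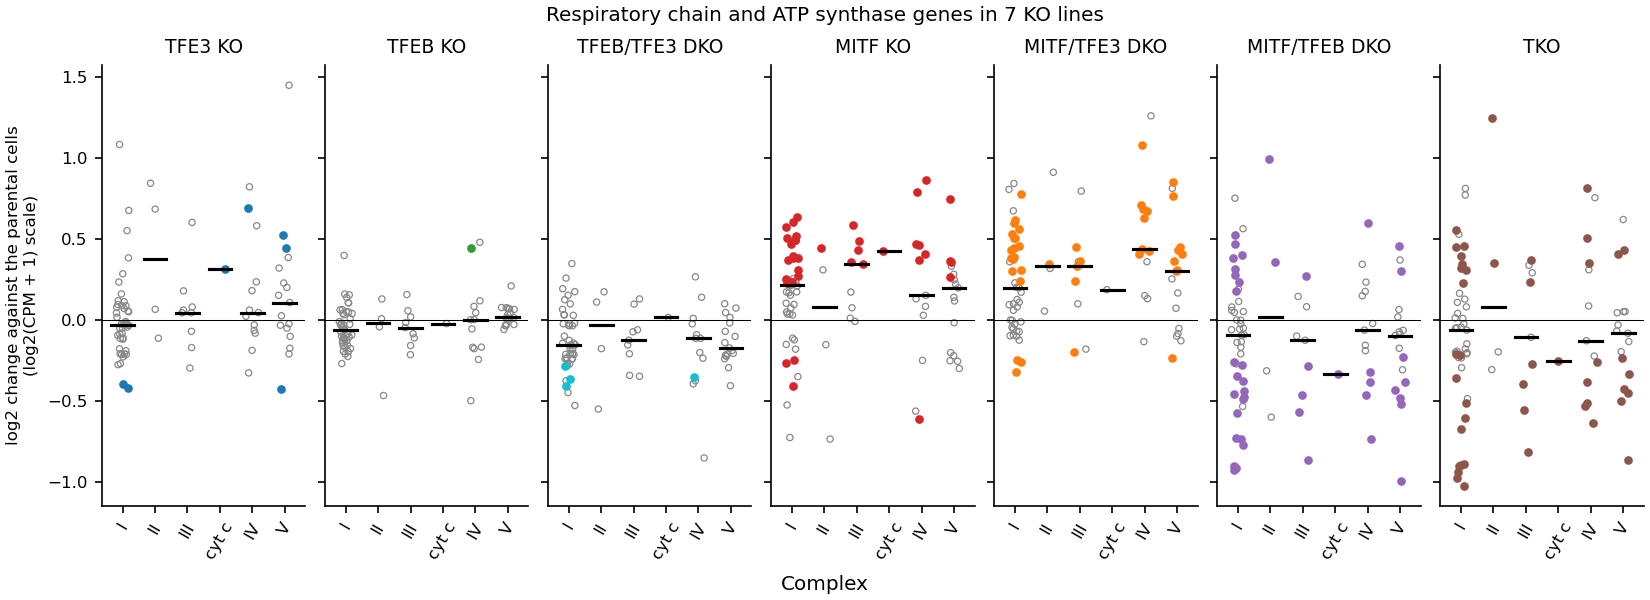
Log2 change against the parental cells (log2(CPM + 1) scale) of each member in 7 KO lines, by complex, with filled points for members called at an adjusted p under 0.05, open points for the others and a bar at the median (the 2 pseudogenes are not drawn). In the MITF KO and the MITF/TFE3 DKO 34 and 37 of the members drawn are called up, whereas in MITF/TFEB DKO and TKO cells 30 and 28 are called down.

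Ndufs1, the largest iron-sulfur subunit of complex I (chr1:63182058-63216236, GRCm39), was at 162, 149 and 147 CPM in the parental cells and at 234, 229.8 and 234 CPM in MITF KO cells. The libraries did not overlap, and the log2 change was 0.61 ± 0.08 (SE), with an adjusted p of 2.9e-06. Cox7a2l, a relative of the subunit Cox7a2 that joins complexes III and IV into supercomplexes, went from 138, 158 and 149 CPM to 267, 301 and 248 CPM. Its change of 0.87 ± 0.12 (adjusted p 5.2e-06) was the largest rise called, and the genes around it on chromosome 17 had a median change of 0.28. Cox7b rose by 0.79 ± 0.15 (adjusted p 0.00024) and Atp5mpl, a small proteolipid of ATP synthase, by 0.75 ± 0.09 (adjusted p 3.9e-07). Ndufb10 and Ndufc1, accessory subunits of complex I, rose by 0.64 ± 0.08 and 0.58 ± 0.08. In complex III, Uqcrh, the hinge protein that helps cytochrome c to dock, rose from 504 to 557 CPM to 754 to 886 CPM (0.59 ± 0.09, adjusted p 2.8e-05), Uqcr10 by 0.43 ± 0.12 and Uqcrc1 by 0.34 ± 0.08. Cyc1, the cytochrome c1 of the same complex, was at 358, 360.2 and 343 CPM and at 365, 337 and 353 CPM, with a change of -0.01 ± 0.08. Cycs, cytochrome c itself, went from 84.5, 101 and 98.3 CPM to 135, 129 and 117 CPM (0.43 ± 0.10, adjusted p 0.0011).

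Sdha, the flavoprotein of complex II, rose from 191, 194 and 163 CPM to 253, 245 and 248 CPM (0.45 ± 0.08, adjusted p 0.00016), with no overlap. Sdhb, its iron-sulfur partner, had a change of 0.31 ± 0.14 (adjusted p 0.096), and Sdhc and Sdhd were among the genes that swung between libraries. Falls were fewer. Cox6a2, the muscle form of a complex IV subunit, was at 2.67, 2.68 and 3.10 CPM in the parental cells and at 1.04, 1.29 and 2.34 CPM in MITF KO cells (a change of -0.61 ± 0.20, adjusted p 0.021), and its call was lost without MITF KO replicate 1 (-0.46, adjusted p 0.12), MITF KO replicate 2 or parental replicate 3. Ndufaf6, an assembly factor, fell by 0.40 (adjusted p 0.0084), Ndufab1 by 0.27 (adjusted p 0.017) and Ndufa8, named after its values were seen, by 0.24. Median changes of the genes around these were 0.12, -0.14 and -0.30, in the same order. The calls of Ndufaf6 and Ndufab1 were lost without MITF KO replicate 2, with adjusted p of 0.066 and 0.10, that of Ndufab1 also without parental replicate 3 (adjusted p 0.061). Without MITF KO replicate 2, 0 members were called down, and without parental replicate 3, 1 was.

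The MITF/TFE3 DKO showed a like number of rises. In that line 37 members rose (background 20.2%) and 5 fell (21.7%) against the parental cells, with a median log2 change of 0.31, and 1 member passed the 2-fold threshold (background 5.87%). The medians were 0.20 for complex I, 0.33 for complex II, 0.34 for complex III, 0.44 for complex IV and 0.31 for complex V. Those of complexes II and IV again include the swinging genes Sdhc, Sdhd, Cox7c and Ndufa4. Cox7b, the member past 2-fold, was at 777, 635 and 695 CPM against 307, 314 and 374 CPM in the parental cells (1.08 ± 0.15, adjusted p 6.3e-06). Atp5mpl rose by 0.85 ± 0.09, Atp5b, the catalytic β subunit of the ATP synthase head, by 0.77 ± 0.13 and Ndufs3, a core subunit of complex I, by 0.78 ± 0.25 (adjusted p 0.015). For Ndufs3 the parental libraries were at 22.6, 22.2 and 27.7 CPM and those of the DKO at 52.1, 37.4 and 37.8 CPM, and the call was lost without MITF/TFE3 DKO replicate 1 (0.62, adjusted p 0.080) or parental replicate 2. The falls with the largest change were of Ndufaf2 (by 0.32), Ndufab1 (by 0.26) and Ndufa9 (by 0.25), each lost without at least 1 library. The genes around them had median changes of -0.02, -0.42 and -0.15, in the same order.

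Compared with the MITF KO, which it was made from, the MITF/TFE3 DKO had 16 members up (background 18.1%) and 12 down (19.7%), with a median of 0.01, so that both shares were below or near the background. At 2-fold, 5 members passed (background 5.06%), namely Ndufb3, Ndufb1, Sdhc, Cox7c and Cox6a2, of which the first 4 are among the swinging genes. Cox7c was at 153, 69.6 and 151 CPM in MITF KO cells and at 679, 241 and 442 CPM in the DKO (1.82 ± 0.63, adjusted p 0.026), and its call was lost without MITF KO replicate 2 (1.45, adjusted p 0.13), MITF/TFE3 DKO replicate 1 or MITF/TFE3 DKO replicate 3. Without MITF/TFE3 DKO replicate 1, where the swinging members were highest in that line, 5 members were up in all, and without MITF KO replicate 2, 7 were up and 7 down. Cox6a2 rose by 1.24 ± 0.20 (adjusted p 6.4e-05), from 1.04 to 2.34 CPM to 3.52 to 7.02 CPM. The largest of the falls without overlap were of Ndufb10 (by 0.51, adjusted p 2.1e-05), Atp5j2 (by 0.50, adjusted p 0.00023) and Uqcrh (by 0.49, adjusted p 0.00032). Around Atp5j2 the neighbouring genes had a median change of -0.34.

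Loss of TFEB in cells without MITF was followed by lower levels across most complexes. In MITF/TFEB DKO relative to MITF KO cells, 48 of 91 members fell, or 52.7% (background 23.9%), and 2 rose (25.1%), with a median log2 change of -0.30. In TKO relative to MITF KO cells, 47 fell (background 23.9%) and 6 rose (26.1%), with a median of -0.30. Complex I had 25 of 45 down in the MITF/TFEB DKO, complex II 1 of 4, complex III 5 of 9, cytochrome c was down, complex IV had 7 of 13 and complex V 8 of 17 down. The medians were -0.31 for complex I, 0.02 for complex II, -0.51 for complex III, -0.31 for complex IV and -0.29 for complex V. That of complex II rests on 4 genes, of which Sdhc and Sdhd swung between libraries. Its summed level, mostly Sdhb, was 1850, 2010 and 1749 CPM in MITF KO cells and 1378, 1461 and 1350 CPM in MITF/TFEB DKO cells. The median of complex IV includes the swinging genes Cox7c and Ndufa4. Summed, complex IV was at 7733, 7201 and 7434 CPM in MITF KO cells and 5029, 5900 and 5851 CPM in MITF/TFEB DKO cells. The 2 comparisons share the MITF KO libraries. At 2-fold, 7 members passed in the MITF/TFEB DKO (background 10.9%) and 9 in the TKO (background 10.9%).

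**Figure D3:**
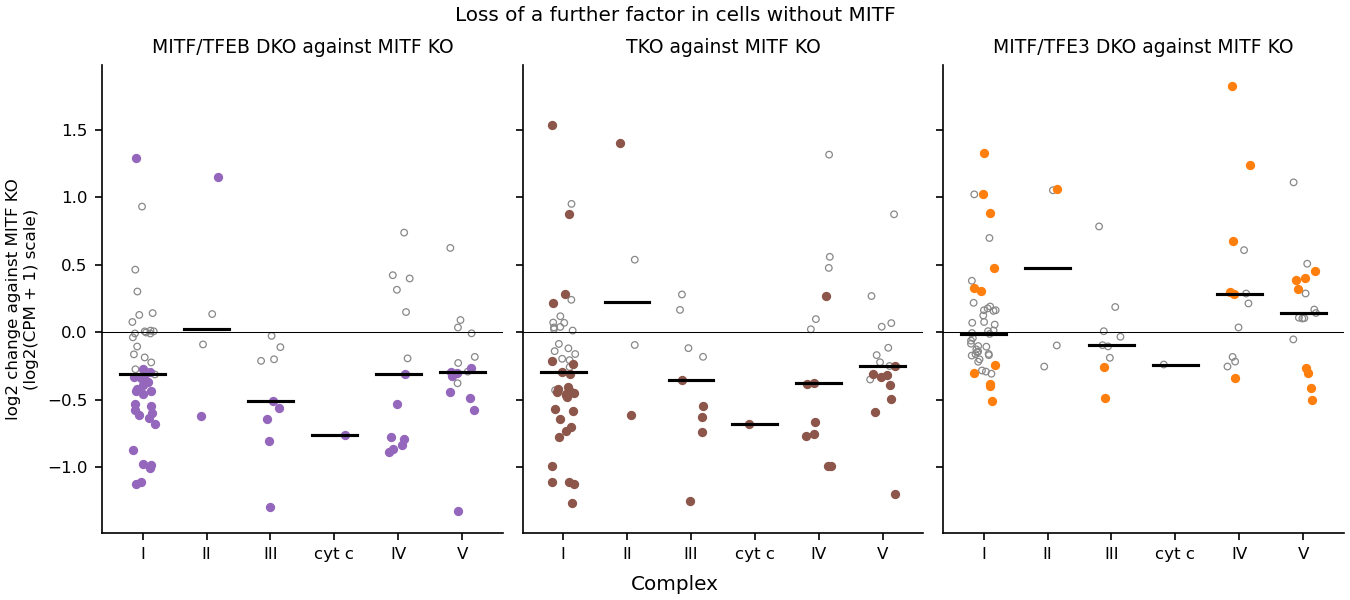
Log2 change against the MITF KO (log2(CPM + 1) scale) of each member by complex, with filled points for members called at an adjusted p under 0.05 and a bar at the median (the 2 pseudogenes are not drawn). Most filled points lie below 0 in the MITF/TFEB DKO (47 down, 2 up) and the TKO (46 down, 6 up), and on both sides in the MITF/TFE3 DKO (16 up, 12 down).

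Uqcr10, a small subunit of complex III (chr11:4651968-4654653), was at 948, 1028 and 928 CPM in MITF KO cells, at 404, 425 and 352 CPM in MITF/TFEB DKO cells and at 422, 395 and 403 CPM in TKO cells. The libraries of both lines lay below every MITF KO library and also below the parental libraries, which were at 644, 786 and 726 CPM. The log2 changes against the MITF KO were -1.30 ± 0.12 (adjusted p 4.6e-09) and -1.25 ± 0.12 (adjusted p 1e-08), while the 100 neighbouring genes had medians of -0.17 and -0.18. Atp5k, a membrane subunit of ATP synthase that helps it to form dimers, was at 635, 668 and 589 CPM in MITF KO cells, at 282, 255 and 218 CPM in MITF/TFEB DKO cells and at 288, 276 and 259.9 CPM in TKO cells. It fell by 1.33 and 1.20 on the log2 scale, with neighbours at -0.35 and -0.20. Ndufv1, the subunit of complex I that takes electrons from NADH (chr19:4057384-4062814), was at 213, 234 and 236 CPM, at 112, 105 and 93.9 CPM and at 109, 105 and 100.4 CPM. Its changes were -1.13 ± 0.10 and -1.11 ± 0.10. Ndufs8, a core subunit nearby on the same chromosome, fell by 1.01 and 1.13 from 128 to 147 CPM. The genes around both had median changes of -0.33 and -0.35 in these lines. Ndufv3, a partner of Ndufv1, fell by 1.11 and 1.27, with neighbours at -0.09 and -0.15.

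Other members with defined roles fell less. Ndufs1 returned to 142, 172 and 165 CPM in MITF/TFEB DKO cells and 174, 168 and 171 CPM in TKO cells, close to its parental level (-0.55 ± 0.08 and -0.44 ± 0.08 against the MITF KO), while the genes around it had medians of 0.21 and 0.31. Cycs was at 82.4, 69.1 and 73.1 CPM and at 80.0, 72.7 and 84.7 CPM, below each library of the MITF KO (-0.76 ± 0.10, adjusted p 7.1e-07, and -0.68 ± 0.10). Uqcrc1 fell by 0.80 and 0.74 and Cyc1 by 0.56 and 0.55, and Cyc1 stood at 223 to 260.0 CPM and 227 to 251 CPM against 343 to 360.2 CPM in the parental cells. Cox4i1 was at 819, 894 and 848 CPM in MITF KO cells, at 529, 509.7 and 453 CPM in MITF/TFEB DKO cells and at 454, 424 and 408 CPM in TKO cells. Its changes were -0.78 ± 0.10 and -0.99 ± 0.10, and the neighbouring genes on chromosome 8 had medians of -0.54 and -0.47. Cox7a2l fell by 0.89 and 0.99 and returned to 130.3 to 170.5 CPM in the DKO. Sdhb had changes of -0.62 ± 0.14 in both lines, whereas those of Sdha were -0.09 ± 0.08 in both (adjusted p 0.38 and 0.35).

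**Figure D4:**
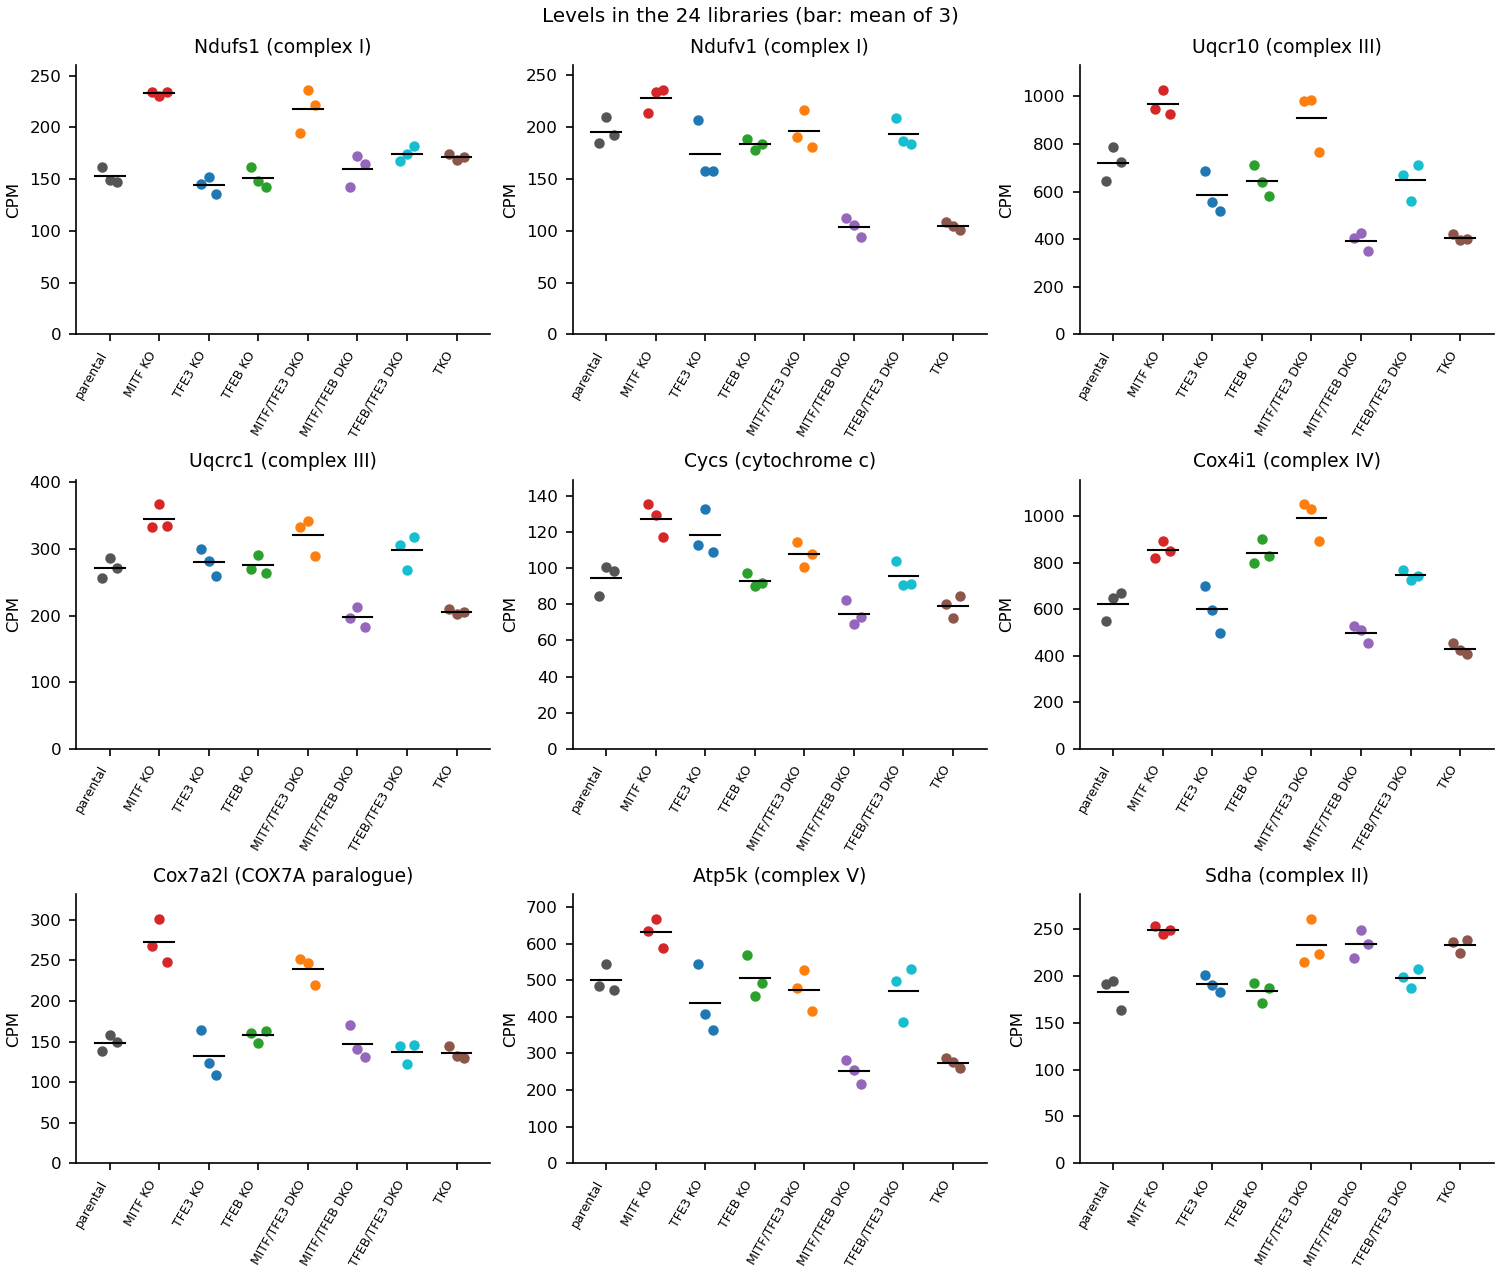
CPM of 9 members in the 24 libraries, by line, with a bar at the mean of 3 and axes that start at 0. Uqcr10, Ndufv1 and Atp5k are lowest in MITF/TFEB DKO and TKO cells, while Sdha stays above its parental level of 163 to 194 CPM in all 4 lines without MITF.

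Rises against the MITF KO were led by genes that swung between libraries. Sdhc, the other membrane anchor of complex II, was at 69.1, 48.1 and 80.5 CPM in MITF KO cells, at 92.3, 162 and 199.9 CPM in MITF/TFEB DKO cells and at 155, 176 and 187 CPM in TKO cells. The change was 1.15 ± 0.37 (adjusted p 0.014) in the DKO, where the call was lost without MITF KO replicate 2 (0.94, adjusted p 0.076), MITF/TFEB DKO replicate 2 (1.06, adjusted p 0.050) or MITF/TFEB DKO replicate 3 (0.91, adjusted p 0.080), and 1.40 ± 0.37 (adjusted p 0.0035) in the TKO, where each left-out library kept it. The neighbours on chromosome 1 had medians of 0.47 and 0.52. Ndufa1, an accessory subunit of complex I encoded on the X chromosome, rose by 1.29 ± 0.39 (adjusted p 0.0094) and 1.54 ± 0.39 (adjusted p 0.0025), with neighbours at 0.38 and 0.45, and its call in the DKO was lost without MITF/TFEB DKO replicate 3 (0.97, adjusted p 0.070). It was at 50.6, 38.6 and 56.4 CPM in MITF KO cells and 69.2, 131 and 184 CPM in MITF/TFEB DKO cells. TKO cells had 120, 138 and 170 CPM. Sdhc and Ndufa1 were the 2 rises of the MITF/TFEB DKO, so that 0 of the members with alike replicates rose there. In the TKO Ndufb3 rose by 0.88 ± 0.34 (adjusted p 0.037), a call lost without MITF KO replicate 2 (0.61, adjusted p 0.19) or any TKO library, and 3 members with alike replicates rose.

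Compared with the parental cells, the same lines showed members on both sides. In the MITF/TFEB DKO 14 rose (background 28.8%) and 30 fell (27.3%), with a median of -0.10, and in the TKO 17 rose (background 28.3%) and 28 fell (27.9%), with a median of -0.08. At 2-fold, 0 members passed in the MITF/TFEB DKO (background 13.7%) and 2 in the TKO (background 14.7%), Ndufs8 and Sdhc. The share that fell was near the background in both lines, and the share that rose was below it. Ndufb8, an accessory subunit of complex I, had 566, 622 and 593 CPM in the parental cells, 325, 321 and 291 CPM in MITF/TFEB DKO cells and 320.0, 294 and 313 CPM in TKO cells, without overlap. Its changes of -0.93 ± 0.08 and -0.94 ± 0.08 were close to the medians of its neighbours on chromosome 19, -0.84 and -0.82. Atp5k fell by 1.0 in the MITF/TFEB DKO (neighbours -0.34), Ndufv1 by 0.91 (neighbours -0.33), Ndufs8 by 1.02 in the TKO (neighbours -0.35) and Ndufaf6 by 0.98 in the TKO (neighbours -0.11).

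Called up in each of the 4 lines without MITF and called in none of the 3 lines that keep it were 11 of the 91 members, or 12.1% (background 4.99% of all genes), in comparisons that share the parental libraries. Among them are Ndufa7, Ndufa13, Ndufb11, Ndufc1, Ndufaf3, Ndufaf7, Sdha, Uqcr11, Atp5b and Atp5mpl. Ndufa13, an accessory subunit of complex I also known as GRIM-19, was at 262, 265 and 259.7 CPM in the parental cells, 344, 369 and 317 CPM in MITF KO cells, 405, 400.4 and 359 CPM in MITF/TFE3 DKO cells, 384, 384 and 368 CPM in MITF/TFEB DKO cells and 375, 355 and 350.2 CPM in TKO cells. Each of these 12 KO libraries was above each parental library, and the log2 changes ran from 0.38 to 0.56. The genes around Ndufa13 had median changes of 0.15, 0.31, 0.21 and 0.17 in these lines, in the same order. Uqcr11, a small subunit of complex III, rose by 0.49, 0.45, 0.27 and 0.37 in the same order, and Ndufaf3, an assembly factor, by 0.47, 0.31, 0.47 and 0.31. Medians of the neighbours ran from 0.002 to 0.17 for Uqcr11 and from -0.22 to -0.003 for Ndufaf3. Atp5b was at 809.8, 857 and 949.9 CPM in the parental cells and 1001 to 1209 CPM in MITF KO cells (0.37 ± 0.13, adjusted p 0.032), a call lost without parental replicate 1 (0.31, adjusted p 0.11), parental replicate 2, MITF KO replicate 1 or MITF KO replicate 3. Around Atp5b the neighbours had medians of 0.13, 0.24, 0.40 and 0.31 in the 4 lines, in the same order. Ndufb11, on the X chromosome, rose by 0.40 in MITF/TFEB DKO and 0.56 in TKO cells, with neighbours at 0.43 and 0.55.

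The effect of TFEB loss was compared between cells with and without MITF by an interaction term. In that test 35 members had a lower change without MITF (background 17.4%) and 1 a higher change (17.7%), with a median difference of -0.28. Complex I had 18 of 45 lower, complex II 1 of 4, complex III 5 of 9, complex IV 6 of 13 and complex V 4 of 17, and cytochrome c was lower. For Cox4i1 the difference was -1.22 ± 0.15 (adjusted p 6.5e-07), with the neighbouring genes at -0.79. For Atp5k it was -1.34 ± 0.19 and for Ndufv3 -1.22 ± 0.15, with neighbours at -0.30 and -0.03. Uqcr10 (-1.14 ± 0.17), Ndufs8 (-1.15 ± 0.15) and Ndufv1 (-1.04 ± 0.14) followed. The member with a higher change was Ndufa1 (1.51 ± 0.56, adjusted p 0.038), with neighbours at 0.44, and without MITF KO replicate 2 there was none. For TFE3 loss, 7 members had a lower change without MITF (background 10.0%) and 2 a higher change (10.2%), with a median difference of 0.05. Cox6a2 had the largest such difference, 1.57 ± 0.29 (adjusted p 0.00035), and Cycs (-0.56 ± 0.14, adjusted p 0.0047) and Ndufb10 (-0.56 ± 0.11, adjusted p 0.00063) stood among the lower ones.

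Some subunits are encoded by several paralogues, whose values are given side by side. The c-ring of ATP synthase, through which protons pass, is made from Atp5g1, Atp5g2 and Atp5g3, which encode the same mature protein. Atp5g3 was at 1855, 1955 and 2147 CPM in the parental cells, 1856, 1474 and 1802 CPM in MITF KO cells and 1256, 1429 and 1467 CPM in MITF/TFEB DKO cells, a change of -0.52 ± 0.12 in the DKO against the parental cells (adjusted p 0.00086). Against the MITF KO its change in the DKO was -0.30 (adjusted p 0.043). That call was lost without MITF KO replicate 1 or 3 or MITF/TFEB DKO replicate 1 or 2 (adjusted p up to 0.16). Its neighbours had medians of -0.23 against the parental cells and 0.11 against the MITF KO. Atp5g1 fell in the MITF/TFEB DKO by 0.43 against the parental cells and by 0.57 against the MITF KO, with neighbours at -0.24 in both. Atp5g2 was at 81.8, 89.9 and 81.7 CPM in the parental cells and 102, 99.7 and 99.1 CPM in MITF KO cells (0.25 ± 0.11, adjusted p 0.075). In complex IV, Cox6a1 went from 709 to 805 CPM in the parental cells to 949 to 1044 CPM in MITF KO cells and 517 to 589.7 CPM in MITF/TFEB DKO cells (neighbours on chromosome 5 at -0.37 against the MITF KO). Its muscle form Cox6a2 had at most 7.02 CPM. Cox5a, a subunit next to the catalytic core, was at 329.8, 349.8 and 411 CPM in parental, 433, 378 and 398 CPM in MITF KO and 311, 327 and 337 CPM in MITF/TFEB DKO cells, and the fall of 0.31 from the MITF KO (adjusted p 0.026) was lost without MITF KO replicate 1 or MITF/TFEB DKO replicate 1 or 2 (adjusted p up to 0.10). Cox8a, a small subunit, changed by 0.13 ± 0.10 in the MITF KO and fell by 0.86 in the MITF/TFEB DKO against it, with neighbours on chromosome 19 at -0.34. Cox7a2 went from 871 to 999.6 CPM to 1134 to 1353 CPM and to 692 to 747 CPM in the same 3 lines. Cox6b1, which binds cytochrome c with complex IV, changed by 0.08 ± 0.10 in the MITF KO and by 0.15 ± 0.10 in the DKO against it.

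Levels of neighbouring genes moved with part of these results. In the MITF KO, 2 of the 88 members with a position lay in a stretch of 100 genes whose median change was at least 0.3 in size, and in MITF/TFEB DKO relative to MITF KO cells 15 did. In the latter comparison 48 positioned members were called in either direction, 12 of them in such a stretch, and the median over the members outside these stretches was -0.30. After subtraction of the neighbours' median, the median over the 88 members was 0.21 for MITF KO cells, 0.27 for MITF/TFE3 DKO cells, -0.34 in MITF/TFEB DKO relative to MITF KO cells and -0.33 in the TKO against it. Of the 88, 73 lay above their neighbours in the MITF KO and 72 below them in MITF/TFEB DKO relative to MITF KO cells. The part of these stretches in the members' changes was not tested beyond this.

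**Figure D5:**
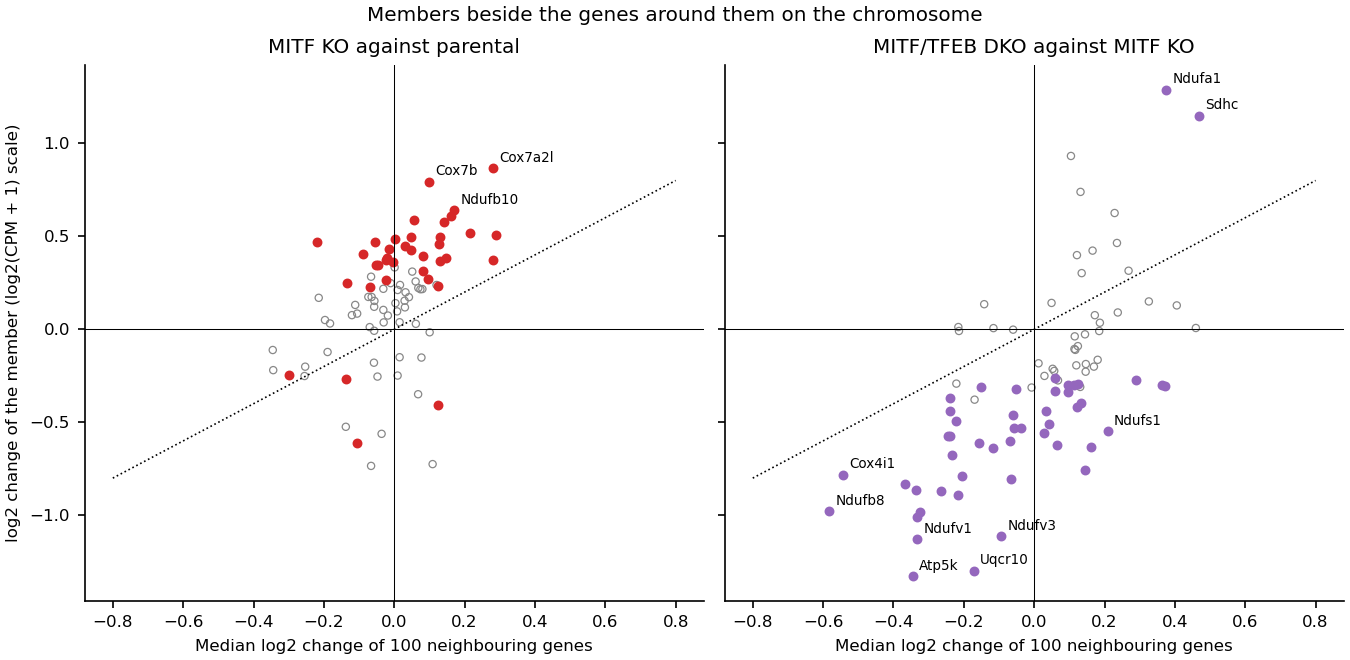
Log2 change of each of 88 members (log2(CPM + 1) scale) against the median log2 change of its 100 neighbouring genes, in MITF KO relative to parental cells and MITF/TFEB DKO relative to MITF KO cells, with filled points for called members and a dotted line where both are equal. Members lie above the line in the MITF KO (73 of 88) and below it in the MITF/TFEB DKO (72 of 88), and Ndufb8 and Cox4i1 lie near stretches that fell as a whole.

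Genes that work beside the complexes were counted in the same way, and the shares over all genes were 20.1% up and 17.8% down in the MITF KO and 25.1% up and 23.9% down for MITF/TFEB DKO relative to MITF KO cells. Of 78 genes for mitochondrial ribosomal proteins, which translate the subunits encoded in mitochondria, 3 rose (3.85%) and 28 fell (35.9%) in the MITF KO, with a median of -0.20, and 6 rose (7.69%) and 33 fell (42.3%) in MITF/TFEB DKO relative to MITF KO cells (median -0.17). Of 14 enzymes of the citrate cycle, 4 rose (28.6%) and 0 fell in the MITF KO, namely Idh3a (by 0.65), Ogdh (0.61), Mdh2 (0.52) and Idh3g (0.34), and 1 rose (7.14%) and 8 fell (57.1%) in the MITF/TFEB DKO against it, Mdh2 by 0.89. Of 13 genes for the synthesis of coenzyme Q, 5 rose (38.5%) and 2 fell (15.4%) in the MITF KO, and 2 rose (15.4%) and 5 fell (38.5%) in the DKO against it. Of 41 assembly factors outside the symbols used here, 5 rose (12.2%) and 4 fell (9.76%), then 7 rose (17.1%) and 11 fell (26.8%). The carriers Slc25a3 for phosphate and Slc25a4 for adenine nucleotides rose in the MITF KO by 0.31 and 0.26 and fell in the DKO against it by 0.21 and 0.55, whereas Slc25a5, which swung between libraries of a line like the 11 members above, changed by -0.36 (adjusted p 0.35) and rose by 0.86.

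Of 11 regulators of these genes, 1 rose (9.09%, background 20.1%) and 4 fell (36.4%, background 17.8%) in the MITF KO. The rise was of Ppargc1a, which was at 152, 149 and 128 CPM in the parental cells, 344, 343 and 309 CPM in MITF KO cells, 169, 189.9 and 220.4 CPM in MITF/TFE3 DKO cells, 65.7, 50.5 and 50.7 CPM in MITF/TFEB DKO cells and 46.1, 46.4 and 48.2 CPM in TKO cells. The MITF KO libraries were the highest of these 5 groups, and those of the MITF/TFEB DKO and the TKO lay below each parental library. In lines that keep MITF it was at 126, 123 and 149.5 CPM in TFE3 KO cells, 231, 159.6 and 197 CPM in TFEB KO cells and 337, 308 and 324 CPM in TFEB/TFE3 DKO cells, where the members' median was -0.14. The log2 change was 1.21 in the MITF KO (adjusted p 4.1e-08), -2.57 in MITF/TFEB DKO relative to MITF KO cells and 1.17 in the TFEB/TFE3 DKO (adjusted p 1.2e-06). The 4 regulators that fell in the MITF KO were Pprc1 (by 0.89), Yy1 (by 0.56), Tfam (by 0.38) and Nrf1 (by 0.37), the last of which binds the letters shown in the promoters of Cycs and Cox6a1. The part of Ppargc1a, Nrf1 or any other regulator in the members' changes was not tested.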

How the data were processed

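Messenger RNA was read from its 3′ end with a stranded QuantSeq kit in 24 libraries, 3 for each of 8 lines. Per the methods and the submitters' processing notes, the authors checked and trimmed reads with FastQC 0.11.9, Trim Galore 0.6.5 and cutadapt 2.10, aligned them to mm39 with STAR 2.7.8a and scaled the counts in edgeR. The counting tool, the annotation and any filter on genes are not given in the sources used here. The deposited table held 12010 genes as a signal that the authors had normalised, CPM with TMM factors. Columns of other samples in it numbered 0. The steps between low values gave whole reads back for at least 99.99% of values in each library (within 0.1 read), 18300902 to 26667877 reads per library. The TMM factors lay between 0.925 and 1.07. Depth is thus known, and at such depth the spread between libraries and not counting sets the error of all but the lowest members.

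All 24 libraries entered 1 limma fit (limma 3.58.1 in R 4.3.3, trended variance) on log2(CPM + 1), with 16 residual degrees of freedom. Each log2 change refers to log2(CPM + 1) and is too small for genes of low level. Tests were two-sided, and p-values were adjusted by Benjamini-Hochberg over all 12010 genes. All adjusted p-values in the text are from this fit unless another tool is named. The code was tested on simulated data. Libraries of a line differed by more than sampling noise and were counted separately. Alternatives were edgeR 4.0.16 on the whole reads, median-of-ratios scaling, other pseudocounts, a filter at a mean of 5 CPM, only the libraries compared, a replicate block, leaving out each library, mature subunits only, and the change relative to 100 neighbouring genes. Neighbours were placed by symbol on GENCODE positions of GRCm39, which 88 members had. Members with alike replicates were counted as an alternative chosen after seeing the data.

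Named by name were core subunits and paralogue sets. Named by value were, in each comparison with the parental cells or the MITF KO, the 3 members with the largest rise and the 3 with the largest fall among those called whose libraries did not overlap, and the members called in all 4 lines without MITF and in none of the other 3. The members and lists were chosen with earlier results of these data known. No protein table was used here. Of the named members, 1 is not reported here.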

Additional observations from a re-analysis of the deposited data

Results flagged for a closer look

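Of the 36 members whose response to TFEB loss differed by an interaction test between cells without and with MITF (adjusted p under 0.05, limma over all genes), the 26 that are named by the rule for members are given here as the change without MITF minus the change with MITF, on the log2 scale. In complex I the difference was -0.53 for Ndufs1, -1.04 for Ndufv1, -1.15 for Ndufs8, -1.22 for Ndufv3, -0.82 for Ndufb8, -0.74 for Ndufa10, -0.67 for Ndufa9, -0.40 for Ndufb10, -0.35 for Ndufc1 and 1.51 for Ndufa1, a gene that swung between libraries. In complexes II and III it was -0.58 for Sdhb, -0.82 for Uqcrc1, -0.62 for Cyc1, -1.14 for Uqcr10 and -0.66 for Uqcrh, and for Cycs it was -0.74. In complex IV it was -1.22 for Cox4i1, -0.67 for Cox6a1, -0.74 for Cox7a2, -0.97 for Cox7a2l, -0.69 for Cox8a and -0.67 for Cox7b. In complex V it was -0.55 for Atp5g1, -0.65 for Atp5mpl, -1.34 for Atp5k and -0.57 for Atp5j2.

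The response to TFE3 loss differed in the same way for 7 of the named members. The difference was -0.56 for Cycs, -0.56 for Ndufb10, -0.47 for Atp5j2, -0.42 for Uqcrh, -0.36 for Ndufc1, 0.46 for Ndufb4 and 1.57 for Cox6a2. The TFE3 KO libraries of Ndufb4 lay in a stretch of chromosome 16 with a median change of -0.31, and Cox6a2 had the lowest level of all members. Both tests use the parental and MITF KO libraries, so that they are not independent of each other. The cause of these differences was not tested.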

How the results depend on the processing

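The median change over all 91 members kept its direction in the MITF KO (0.17 to 0.22 on leaving out 1 library), the MITF/TFE3 DKO (0.23 to 0.31), MITF/TFEB DKO relative to MITF KO cells (-0.31 to -0.26) and the TKO against it (-0.33 to -0.26), and over the other alternatives it lay between -0.34 and -0.29 for MITF/TFEB DKO relative to MITF KO cells. Of the named members' changes, 957 results under alternatives other than leaving out a library stayed on their side of the threshold, 6 crossed it upwards, 12 lost the call and 0 turned. When libraries were left out, 81 calls were lost, 4 gained and 755 held. With only the libraries compared in the fit, 8 members fell in the MITF KO, 1 rose and 0 fell in the TFE3 KO, 0 rose in the TFEB KO, 1 fell in the TFEB/TFE3 DKO, 2 fell in the MITF/TFE3 DKO, 12 rose in the TKO against the MITF KO, and 4 had a lower response to TFE3 loss without MITF. That fit has fewer libraries and so fewer residual degrees of freedom. A mean of at least 5 CPM left 1 member with a higher response to TFE3 loss. Without the 11 members that swung between libraries, 0 rose in MITF/TFEB DKO relative to MITF KO cells, 3 in the TKO against it and 0 had a higher response to TFEB loss. For the rest the cause was not tested.

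Leaving out 1 library at a time gave 28 to 33 members up and 0 to 5 down in the MITF KO (down: 1 without parental replicate 3, 0 without MITF KO replicate 2), 1 to 8 up and 1 to 12 down in the TFE3 KO, 0 to 1 up and 0 down in the TFEB KO and 1 to 3 down in the TFEB/TFE3 DKO. It gave 25 to 40 up and 1 to 4 down in the MITF/TFE3 DKO, 10 to 14 up and 26 to 30 down in the MITF/TFEB DKO, and 12 to 17 up and 21 to 27 down in the TKO. Against the MITF KO it gave 0 to 3 up and 40 to 48 down in the MITF/TFEB DKO, 5 to 17 up and 4 to 14 down in the MITF/TFE3 DKO, and 2 to 7 up and 43 to 46 down in the TKO. The response to TFEB loss was higher in 0 to 2 and lower in 31 to 37, and that to TFE3 loss higher in 2 to 6 and lower in 4 to 8.

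The labels number the libraries of each line from 1 to 3, but the numbers did not pair them. Deviations of libraries with the same number correlated at a mean r of 0.022 (range -0.660 to 0.770), against -0.013 for other numbers. With the number as a replicate block, 36 members rose and 4 fell in the MITF KO, and 2 rose and 50 fell in MITF/TFEB DKO relative to MITF KO cells.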
